A study of Arabidopsis thaliana with 9 samples.

Results

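HAK5, AKT1, KC1, CIPK23, CIPK9, CBL1, CBL9, CBL2, CBL3 and RAP2.11 are 10 genes of potassium uptake and of its calcium-dependent control in Arabidopsis thaliana. They were chosen by gene identifier for that role and make up 10 of the 37547 genes in the files. RNA of wild-type Col-0 roots was sequenced in 9 libraries, 3 from each of 3 growth conditions. Cesium roots grew with 0.5 mM KCl and added CsCl, whose amount the labels give as 0.3 with mL as the unit, so its concentration is not known here. Low-potassium roots grew with 0.025 mM KCl, and control roots with 0.5 mM KCl. Per the labels' protocols, all plants shared the same basal nutrient medium with sucrose and agarose and the same light and temperature, and plant age is not given in the labels. The labels name biological replicates without tying them to separate cultures or plates, and the p-values below therefore describe the spread among these samples only, part of which may be technical.

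Plant roots take up potassium by a pair of main routes. HAK5 is a high-affinity potassium transporter of the plasma membrane that also carries cesium, and AKT1 is an inward-rectifying channel of the Shaker family. KC1 is a Shaker subunit that forms no channel alone and joins AKT1 in the same pore complex, where it alters gating. Calcium signals reach these proteins through CBL proteins, which bind calcium and hold CIPK kinases at a membrane: CBL1 and CBL9 bring CIPK23 to the plasma membrane, where it phosphorylates both AKT1 and HAK5, whereas CBL2 and CBL3 sit at the vacuole membrane and work with kinases that include CIPK9. RAP2.11 is a transcription factor of the AP2/ERF family known to act on the HAK5 promoter. HAK5 is widely used as a marker gene of potassium shortage in roots.

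In low potassium 6 of the 10 genes were called higher than in control roots and 2 were called lower, where 37.6% of all tested genes were called in either direction. HAK5 moved the farthest, to a mean 36.2 times that of control. CIPK9 stood at 7.28 times control, and AKT1, CBL9, CIPK23 and KC1 at 1.54 to 1.81 times control. RAP2.11 and CBL2 were lower, at 0.378 and 0.79 times control. In cesium 2 of the 10 genes were called against control, RAP2.11 and CBL9, both lower, where 23.5% of all tested genes were called. Set directly against low potassium, cesium roots had 7 of the 10 genes called lower, HAK5 and CIPK9 foremost. Of all tested genes, 34.2% were called in that comparison. Values are FPKM, which are read fragments relative to the length of the transcript and the size of the library, given as mean ± SD of 3 libraries. Changes are differences ± SE of log2(FPKM + 1), a scale on which low genes appear to change less than they do, and adjusted p-values are those of limma with Benjamini-Hochberg adjustment over 19536 tested genes, with 0.05 as the threshold. All 10 genes passed the filter of a mean of 1 FPKM and were tested.

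Each library held between 715298 and 845355 FPKM in all, with 19172 to 19481 genes at 1 FPKM or more. What 1 read is worth in FPKM, read from the steps between low values, lay between 98.6% and 102.8% of that in control replicate 1. Absolute depth is unknown, so no counting error was computed for single values, and only the deposited confidence bounds can be set beside them. Cesium replicate 3 had the smallest sum and listed the metallothionein gene MT1A at 0, against 65213 to 94117 FPKM in the other libraries. All 8 root marker genes checked, SHR, SCR and CASP1 among them, were detected in every group, but not at equal levels. Against control, 3 were called lower in low potassium (NRT2.1, GL2 and CASP1), where 37.6% of all tested genes were called. In cesium 2 were called lower (GL2 and CASP1) and 2 higher (SUC2 and PLT2), where 23.5% of all tested genes were called. Summed green-tissue markers, which include LHCB1.3 and RBCS1A, were also present, at 901 to 1620 FPKM in cesium, 254 to 294 FPKM in low potassium and 338 to 443 FPKM in control libraries. Their part in the results on potassium genes was not tested.

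Upstream sequence is shown for HAK5, CIPK9 and RAP2.11, the genes with the largest called changes in low potassium, as the 250 bases before the annotated gene start. They were read from RefSeq's TAIR10.1 at chr4:7802252-7802501, chr1:67775-68024 and chr5:6690041-6690290, all on the minus strand, and are given 5′ to 3′ on the gene's strand, with motif matches in capitals.
HAK5: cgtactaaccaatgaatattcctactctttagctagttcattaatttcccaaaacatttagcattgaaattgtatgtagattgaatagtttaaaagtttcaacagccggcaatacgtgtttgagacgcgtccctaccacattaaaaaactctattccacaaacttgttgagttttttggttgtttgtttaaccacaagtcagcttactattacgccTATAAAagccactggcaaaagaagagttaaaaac
CIPK9: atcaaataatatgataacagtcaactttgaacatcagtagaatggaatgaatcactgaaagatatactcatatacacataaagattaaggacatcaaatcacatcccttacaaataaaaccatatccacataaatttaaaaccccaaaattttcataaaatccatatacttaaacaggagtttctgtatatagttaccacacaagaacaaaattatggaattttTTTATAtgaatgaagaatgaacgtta
RAP2.11: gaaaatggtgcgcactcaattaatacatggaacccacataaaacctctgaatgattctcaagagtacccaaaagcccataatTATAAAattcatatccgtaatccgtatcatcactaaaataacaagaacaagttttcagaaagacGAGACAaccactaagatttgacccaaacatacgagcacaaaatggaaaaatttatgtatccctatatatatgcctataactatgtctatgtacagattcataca
The motifs searched on both strands were GCCGCC (the GCC box of ERF factors), AATTCAAA or ATTTCAAA (the ethylene-responsive element ERELEE4), TGTCTC (an auxin response element) and TATAAA (the core of the TATA box). The last was added after the sequences were seen. HAK5 holds TATAAA at -34 to -29 from the gene start, CIPK9 holds it on the opposite strand at -26 to -21, and RAP2.11 holds it at -168 to -163 together with TGTCTC on the opposite strand at -104 to -99. AATTCAAA was found upstream of CBL1 and of CBL3 only, TATAAA also upstream of AKT1, KC1, CIPK23, CBL9 and CBL2, and GCCGCC upstream of none of the 10 genes. Of 27438 upstream regions of protein-coding genes of the same length, 1.87% hold GCCGCC, 11.2% ERELEE4, 10.9% TGTCTC and 47.4% TATAAA. A match is a run of letters, not a known binding site, and a missing match says only that the letters are not in this window.

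HAK5 (AT4G13420) lies at chr4:7796782-7802251 on TAIR10. It stood at 2.24, 4.88 and 2.83 FPKM in the cesium libraries, at 142, 156 and 157 FPKM in the low-potassium libraries and at 3.68, 4.33 and 4.58 FPKM in the control libraries. All 3 low-potassium libraries lay far above the other 6, and the cesium values overlapped those of control. The mean was 3.32 ± 1.38 FPKM in cesium, 152 ± 8.45 FPKM in low potassium and 4.2 ± 0.465 FPKM in control. Against control the change in low potassium was 4.88 ± 0.19 (adjusted p = 1.99e-06, limma), place 2 of the 19536 tested genes from the highest change. In whole roots, a change in the number of cells of a type and a change in RNA per cell cannot be told apart. Cesium against control gave -0.31 ± 0.19 (adjusted p = 0.253, limma), which missed the threshold. Cesium replicate 2 was the highest of its group, and without it that change was -0.56 with an adjusted p of 0.012 in limma. Cesium against low potassium gave -5.19 ± 0.19 (adjusted p = 1e-06, limma), place 2 from the lowest change. The mean of HAK5 was above those of 15.1% of tested genes in cesium, 95.8% in low potassium and 20.4% in control.

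AKT1 (AT2G26650) stood at 63.1, 60.0 and 45.1 FPKM in cesium, at 99.6, 102 and 103 FPKM in low potassium and at 53.8, 57.6 and 56.8 FPKM in control. The low-potassium libraries were the highest with no overlap, and cesium spanned the control values on both sides, with cesium replicate 3 lowest of all 9. The mean was 101 ± 1.53 FPKM in low potassium against 56.1 ± 2.02 FPKM in control, a change of 0.84 ± 0.11 (adjusted p = 0.000585, limma). In cesium the mean was 56.1 ± 9.62 FPKM, and the change against control was -0.014 ± 0.11 (adjusted p = 0.942, limma). That near-zero change was 0.13 without cesium replicate 3. Cesium against low potassium gave -0.86 ± 0.11 (adjusted p = 0.00054, limma).

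KC1 (AT4G32650, chr4:15751271-15755047), the silent partner subunit of AKT1, was also highest in low potassium, with smaller changes than AKT1 in the comparisons with low potassium. Its values were 50.0, 44.7 and 32.8 FPKM in cesium, 64.3, 60.8 and 62.3 FPKM in low potassium and 36.5, 41.7 and 43.3 FPKM in control. Again the low-potassium libraries did not overlap the rest and cesium replicate 3 was the lowest of all. The changes were 0.62 ± 0.14 for low potassium against control (adjusted p = 0.00725, limma), 0.052 ± 0.14 for cesium against control (adjusted p = 0.816) and -0.57 ± 0.14 for cesium against low potassium (adjusted p = 0.0114). The ratio of KC1 to AKT1 FPKM was 0.755 ± 0.0338 in cesium, 0.617 ± 0.025 in low potassium and 0.721 ± 0.0416 in control. The ratio was lowest in low potassium, where its highest value was 0.645, while its lowest value in the other 6 libraries was 0.678. HAK5 FPKM were 0.0599 ± 0.023 times those of AKT1 in cesium, 1.5 ± 0.0624 times in low potassium and 0.0747 ± 0.0061 times in control, so that transporter and channel transcripts changed places in low potassium.

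**Figure D1:**
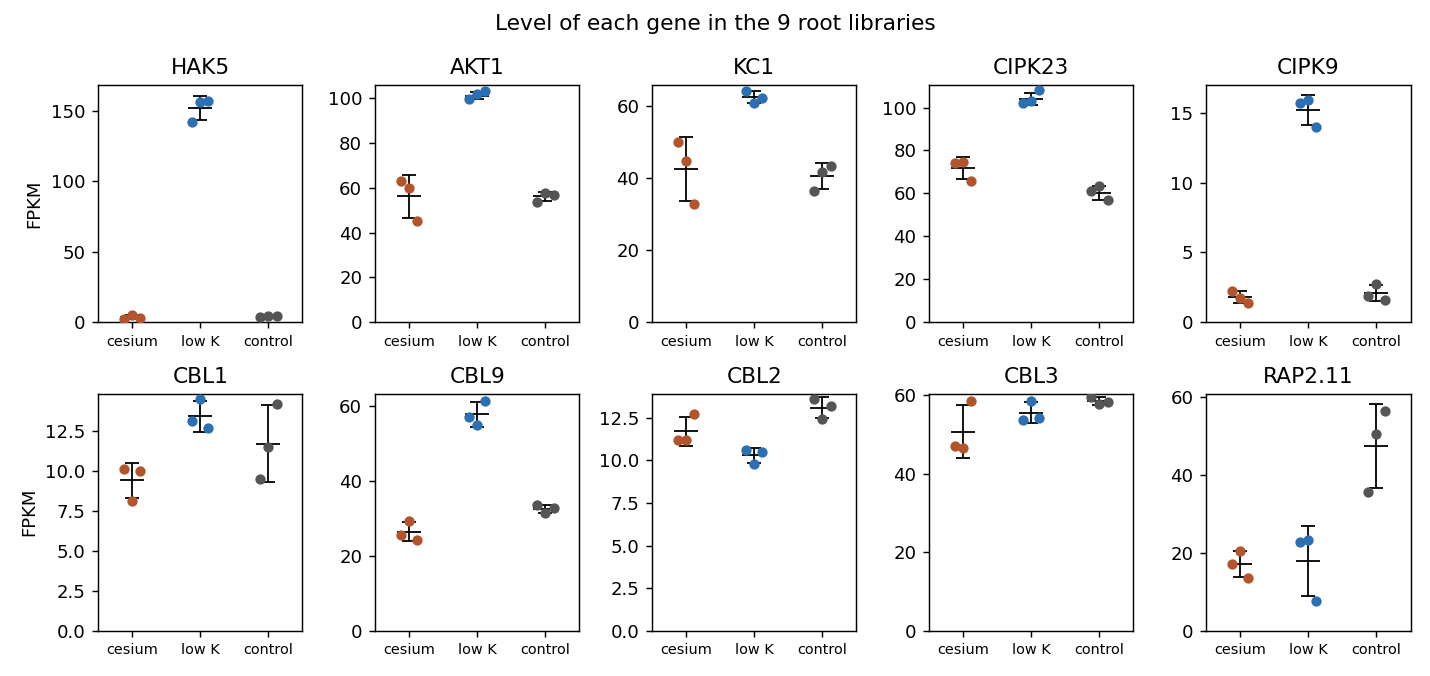
FPKM of each of the 10 genes (vertical axis, from 0, own scale per gene) in every cesium, low-potassium (low K) and control library; points are libraries, and bars are the mean ± SD of 3. HAK5 and CIPK9 stand near the bottom in cesium and control and far up in low potassium, and RAP2.11 is highest in control.

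CIPK23 (AT1G30270, chr1:10654800-10658924), the kinase that phosphorylates AKT1 and HAK5, stood at 74.4, 74.8 and 65.8 FPKM in cesium, at 102, 103 and 108 FPKM in low potassium and at 61.0, 63.3 and 56.7 FPKM in control. None of the 3 groups overlapped another, with cesium between low potassium and control. Low potassium against control gave 0.78 ± 0.079 (adjusted p = 0.000117, limma) and cesium against low potassium -0.54 ± 0.079 (adjusted p = 0.000956, limma). For cesium against control the change of 0.24 ± 0.079 just missed the threshold (adjusted p = 0.0511, limma). It passed without cesium replicate 3 (0.30, adjusted p = 0.0148), with quantile normalization (adjusted p = 0.0359) and when low genes were not filtered out (adjusted p = 0.0434). The authors' deposited table gives this change as 0.25 with a q-value of 0.18.

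CIPK9 (AT1G01140, chr1:64166-67774), a kinase known to take part in growth under potassium shortage, had the largest relative change after HAK5. Its values were 2.25, 1.73 and 1.38 FPKM in cesium, 15.7, 15.9 and 14.0 FPKM in low potassium and 1.89, 2.76 and 1.6 FPKM in control. The low-potassium libraries stood clear of the other 6, which overlapped each other. Low potassium against control gave 2.41 ± 0.16 (adjusted p = 1.22e-05, limma), place 50 of 19536 from the highest change. Cesium against control gave -0.14 ± 0.16 (adjusted p = 0.547), and cesium against low potassium -2.55 ± 0.16 (adjusted p = 9.33e-06, limma), place 28 from the lowest. CIPK9 remained far below CIPK23 in level: it made up 2.41% ± 0.462 of the summed FPKM of both kinases in cesium, 12.7% ± 1.06 in low potassium and 3.31% ± 0.765 in control.

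Of the plasma-membrane calcium sensors, CBL9 (AT5G47100, chr5:19129640-19132304) passed the threshold in all 3 comparisons and CBL1 in 1. CBL9 stood at 25.6, 29.2 and 24.3 FPKM in cesium, at 57.0, 54.7 and 61.3 FPKM in low potassium and at 33.6, 31.4 and 32.6 FPKM in control. The 3 groups did not overlap, and cesium was the lowest. Low potassium against control gave 0.81 ± 0.085 (adjusted p = 0.000139, limma) and cesium against low potassium -1.1 ± 0.085 (adjusted p = 2.96e-05, limma). Cesium against control gave -0.30 ± 0.085 (adjusted p = 0.0319, limma). That last call was narrow: without cesium replicate 1 or 3 the adjusted p was 0.0833 or 0.0638, and without control replicate 1, 2 or 3 it was 0.0887, 0.0664 or 0.0852, all in limma. With quantile normalization it was 0.0675, with a fit on the 6 libraries compared 0.0596 and with a block on replicate number 0.0653. The authors' deposited table gives a q-value of 0.11.

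CBL1 (AT4G17615) was lower in level than CBL9 in every library. It stood at 10.1, 8.14 and 9.99 FPKM in cesium, at 13.1, 14.5 and 12.7 FPKM in low potassium and at 9.49, 11.5 and 14.2 FPKM in control. Control replicates spread widely and overlapped both other groups. Low potassium against control (0.19 ± 0.14, adjusted p = 0.292) and cesium against control (-0.28 ± 0.14, adjusted p = 0.169) missed the threshold in limma, while cesium against low potassium passed (-0.47 ± 0.14, adjusted p = 0.0246). It no longer passed without low-potassium replicate 1 (adjusted p = 0.0557), low-potassium replicate 2 (0.0865) or cesium replicate 2 (0.0856). CBL9 made up 73.6% ± 4.01 of the summed FPKM of CBL1 and CBL9 in cesium, 81.1% ± 1.9 in low potassium and 73.6% ± 4.19 in control.

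The vacuolar sensors moved little. CBL2 (AT5G55990, chr5:22671113-22674100) stood at 11.2, 11.2 and 12.7 FPKM in cesium, at 10.6, 9.81 and 10.5 FPKM in low potassium and at 13.6, 12.4 and 13.2 FPKM in control. Low potassium was the lowest group, without overlap with control. The change against control was -0.31 ± 0.081 (adjusted p = 0.0144, limma), and it missed the threshold without low-potassium replicate 2 (adjusted p = 0.0529), without control replicate 1 (adjusted p = 0.0522) and by the authors' deposited q-value of 0.103. Cesium against control gave -0.15 ± 0.081 (adjusted p = 0.217), and cesium against low potassium 0.17 ± 0.081 (adjusted p = 0.144).

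CBL3 (AT4G26570) stood at 47.0, 46.6 and 58.6 FPKM in cesium, at 53.8, 58.6 and 54.2 FPKM in low potassium and at 59.6, 57.7 and 58.3 FPKM in control. The 3 groups overlapped each other. None of the 3 comparisons passed, with changes of -0.076 ± 0.095 for low potassium against control (adjusted p = 0.559), -0.21 ± 0.095 for cesium against control (adjusted p = 0.136) and -0.14 ± 0.095 for cesium against low potassium (adjusted p = 0.295), all in limma. Cesium replicate 3 was the highest cesium library, and without it cesium was called lower than control (-0.32, adjusted p = 0.00957) and lower than low potassium (-0.24, adjusted p = 0.0232). CBL3 held 81.2% ± 0.865 of the summed FPKM of CBL2 and CBL3 in cesium, 84.3% ± 1.2 in low potassium and 81.8% ± 0.498 in control. That spread is between libraries only. The deposited lower bound of CBL3 was 0 in all 9 libraries, and its upper bounds were 722 to 865 FPKM.

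RAP2.11 (AT5G19790), the transcription factor, was highest in control roots, and HAK5 was low both there and in cesium. The RAP2.11 values were 17.2, 20.4 and 13.6 FPKM in cesium, 22.8, 23.4 and 7.69 FPKM in low potassium and 35.5, 50.5 and 56.5 FPKM in control. Neither treatment overlapped control, and low-potassium replicate 3 was the lowest of all 9 libraries. Low potassium against control gave -1.47 ± 0.36 (adjusted p = 0.0108, limma), and cesium against control -1.41 ± 0.36 (adjusted p = 0.0194, limma). Without low-potassium replicate 3 the change in low potassium was -0.98 (adjusted p = 0.00951). The cesium call no longer passed without cesium replicate 3 (adjusted p = 0.0514), control replicate 2 (0.0645) or control replicate 3 (0.0718). The authors' deposited table gives -1.4 with a q-value of 0.104 for low potassium and -1.47 with a q-value of 0.0394 for cesium. Cesium against low potassium gave 0.061 ± 0.36 (adjusted p = 0.912), and its sign turned without low-potassium replicate 3.

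Root hair markers moved in part with RAP2.11. The summed FPKM of 7 such genes, COW1, RHD6, RSL4, EXPA7, PRP3, LRX1 and RBOHC, was 150, 182 and 129 in cesium, 246, 224 and 80.8 in low potassium and 249, 341 and 416 in control. The lowest library was low-potassium replicate 3 in both measures, and the order of the 3 control libraries was the same. Low-potassium replicates 1 and 2 differed: RAP2.11 stood at 48.0% and 49.2% of its control mean. The marker sum stood at 73.4% and 66.7% there, beside 74.4% in control replicate 1. PRP3 made the largest part of the sum, with a mean of 110 FPKM in low potassium, and was not called there. Of the 7 markers 6 were called lower in low potassium, with a median change of -0.89, and 4 in cesium, with a median of -1.01; none is at 0. Of all tested genes 18.8% were called lower in low potassium and 12.7% in cesium, with medians of 0.0018 and 0.02. In cesium against low potassium 0 of the 7 were called in limma, beside 34.2% of all tested genes, and 0 had an unadjusted p under 0.05. The part of root hair RNA in the RAP2.11 values was not tested.

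**Figure D2:**
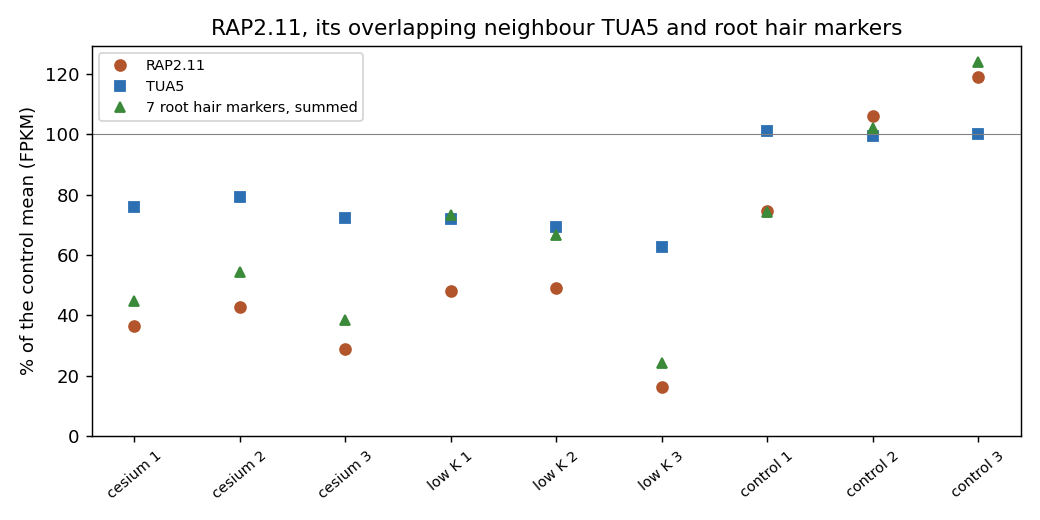
RAP2.11, TUA5 and the sum of 7 root hair markers in each library, as a percentage of their own control mean in FPKM (vertical axis; the line marks 100%). RAP2.11 and the marker sum are both lowest in low-potassium replicate 3, at 16.2% and 24.1%, where TUA5 stands at 62.5%.

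The RAP2.11 region also holds another gene. The files give RAP2.11 the region chr5:6687030-6690040, shared with TUA5, a tubulin gene. In the RefSeq annotation of TAIR10.1 RAP2.11 covers chr5:6689108-6690040 on the minus strand and TUA5 chr5:6687030-6689171 on the plus strand, so that their ends overlap by 64 bases. The libraries were strand-specific per the labels, but whether strand was used in counting is not given, so reads in the overlap may belong to either gene. TUA5 was 131, 136 and 124 FPKM in cesium, 124, 119 and 108 FPKM in low potassium and 173, 171 and 172 FPKM in control, with changes of -0.56 ± 0.079 in low potassium (adjusted p = 0.000704, limma) and -0.40 ± 0.079 in cesium (adjusted p = 0.006, limma). It too was lower in both treatments, by a smaller amount than RAP2.11. Its part in the RAP2.11 values was not tested.

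The regions of 3 further genes were joined with neighbours. AKT1 is given as chr2:11329719-11336738 together with KCS11, which was lower in low potassium (-0.48 ± 0.095, adjusted p = 0.00421, limma), while AKT1 was higher. CBL1 is given as chr4:9816278-9821730 together with AT4G17616, whose level was 4.15 to 4.52 FPKM in cesium, 4.37 to 4.46 FPKM in low potassium and 3.27 to 3.78 FPKM in control. CBL3 has the region chr4:13242719-13818184 in the library files, 575466 bases shared with 204 other genes, but chr4:13408383-13411177 in the authors' deposited table, which gives it 55.6 FPKM in low potassium and 58.6 FPKM in control. No run of 50 bases of the transcripts of 9 of the 10 genes occurs in transcripts of another gene, and in RAP2.11 1.7% of such runs occur on the opposite strand of TUA5. Close relatives within the family therefore share no exact run of that length.

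The files also hold a lower and an upper confidence bound for each value, as the authors deposited them. For HAK5 the lowest and highest bounds were 0.659 and 7.63 FPKM in cesium, 70.1 and 237 FPKM in low potassium and 1.44 and 7.21 FPKM in control. For CIPK9 they were 0.107 and 4.05 FPKM in cesium, 7.02 and 23.6 FPKM in low potassium and 0.087 and 4.86 FPKM in control. In these 2 genes the low-potassium bounds stood apart from those of cesium and of control. In the other 8 genes they overlapped. The share of all genes with bounds apart was not counted, so these counts describe the 10 genes only. Over all 10 genes, upper bounds lay at least 44.2% above their values. RAP2.11 and CBL3 had a lower bound of 0 in all 9 libraries, and CBL3 upper bounds reached 722 to 865 FPKM, so the deposited uncertainty of these 2 genes was the widest of the 10.

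**Figure D3:**
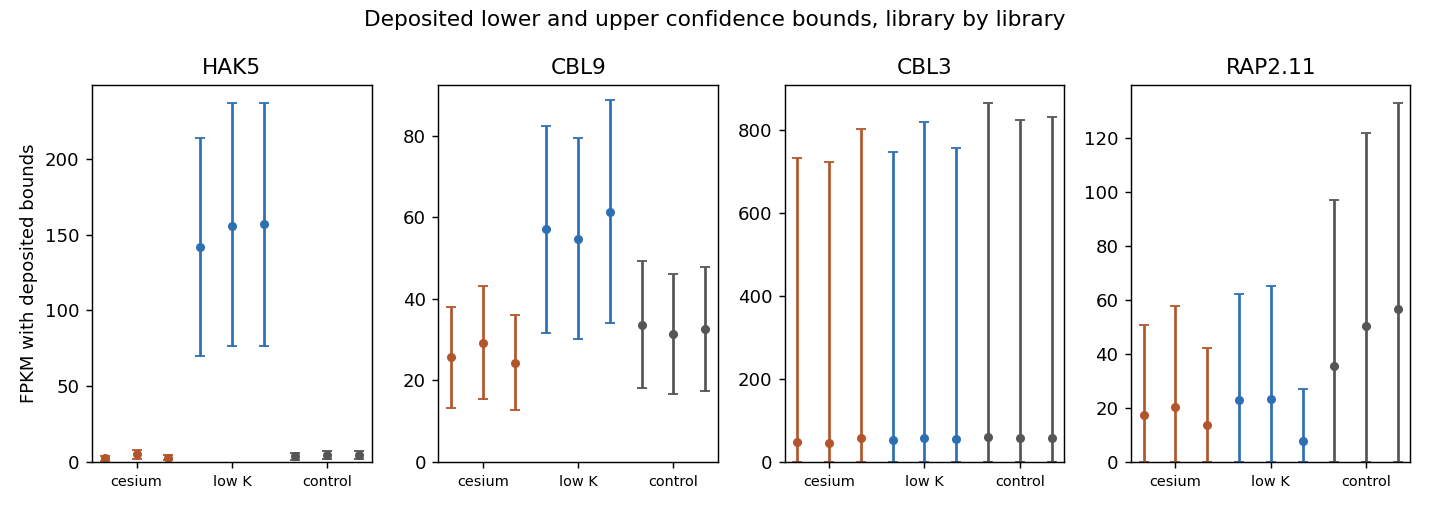
FPKM of HAK5, CBL9, CBL3 and RAP2.11 in each library (points) with the deposited lower and upper confidence bounds (bars), for cesium, low potassium and control. The HAK5 bounds in low potassium start at 70.1 and do not meet those of control, whereas the CBL3 and RAP2.11 bounds reach down to 0 in all 9 libraries.

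Over the 10 genes together, the 6 called higher and the 2 called lower in low potassium stood beside 18.8% of all 19536 tested genes called higher and 18.8% called lower. The median change of the 10 genes was 0.70, against 0.0018 over all tested genes. In cesium against control the 2 called lower stood beside 12.7% of all tested genes called lower and 10.8% called higher, so the share of the 10 genes called was near the 23.5% of all genes. The count of genes called higher was 0 in limma, beside 1 (CIPK23) with an unadjusted p under 0.05 and 0 in the authors' deposited table, and the median change was -0.18, against 0.02 over all tested genes. In cesium against low potassium the 7 called lower stood beside 17.4% of all tested genes called lower and 16.7% called higher. The count called higher was 0 in limma, beside 0 with an unadjusted p under 0.05, and the median change was -0.55, against -0.0024 over all tested genes. The first and the second comparison share the control libraries. The third reuses the low-potassium libraries of the first and the cesium libraries of the second. In the main fit its changes are the differences between theirs, so its calls are not separate evidence. By the authors' deposited table, 6 of the 10 genes had a q-value under 0.05 in low potassium, at 0.000491 each, the smallest q of that table, which 2909 genes share. HAK5 had a deposited log2 change of 5.18 there, CIPK9 2.86, AKT1 0.86, CBL9 0.83, CIPK23 0.79 and KC1 0.63. Of all genes tested there, 30.1% passed for low potassium and 22.5% for cesium.

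**Figure D4:**
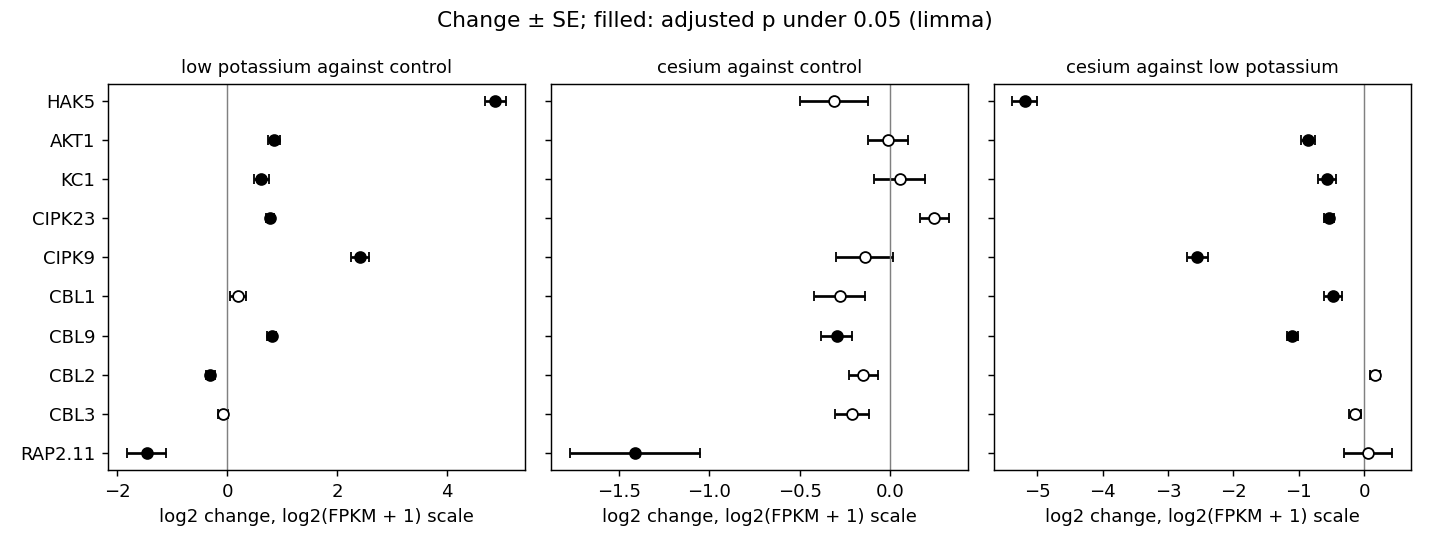
Log2 change ± SE (horizontal axis, log2(FPKM + 1) scale, own range per panel) of the 10 genes in the 3 comparisons; filled points have an adjusted p under 0.05 in limma. In low potassium against control 6 filled points lie right of 0 and 2 left, in cesium against control 2 lie left, and in cesium against low potassium 7 lie left.

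The order of the 10 genes by FPKM, a scale per transcript length, differed between conditions. In cesium CIPK23 (71.7 ± 5.08 FPKM) stood apart at the top. AKT1, CBL3 and KC1 overlapped below it, CBL9, RAP2.11, CBL2 and CBL1 each stood apart from their neighbours, and HAK5 and CIPK9 (1.78 ± 0.438 FPKM) overlapped at the low end. In low potassium HAK5 stood first, apart from CIPK23 (104 ± 2.99 FPKM) and AKT1, which overlapped each other. KC1, CBL9 and CBL3 followed, each overlapping the next, then RAP2.11, CIPK9 and CBL1 likewise. CBL2 (10.3 ± 0.45 FPKM) was last by mean and apart from CBL1. It was not apart from RAP2.11, which at 7.69 FPKM in low-potassium replicate 3 lay below every CBL2 value. In control CIPK23 (60.3 ± 3.33 FPKM) and CBL3 (58.5 ± 0.981 FPKM) were the highest and overlapped, followed by AKT1, RAP2.11 and KC1, each overlapping the next. CBL9 stood apart from its neighbours, CBL2 and CBL1 overlapped, and HAK5 stood above CIPK9 (2.09 ± 0.605 FPKM) at the low end, with no overlap. HAK5 was thus next to last in cesium, first in low potassium and next to last in control.

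Genes whose profile over the 9 libraries was most like that of HAK5 were sought by the root-mean-square difference of log2(FPKM + 1) values centred on each gene's mean, among the tested genes. The 5 nearest were AT1G14642 (0.573), CHX17 (0.755), AT5G38910 (0.807), AT5G47000 (0.858) and AT4G18280 (0.902). AT1G14642, an uncharacterized protein, was listed at 0 in every cesium and control library and averaged 24.6 FPKM in low potassium. CHX17, a cation/proton exchanger, averaged 10.2 FPKM in cesium, 125 FPKM in low potassium and 8.94 FPKM in control. AT5G38910 is a cupin-family protein, AT5G47000 a peroxidase and AT4G18280 a protein like glycine-rich cell wall proteins. Unlike HAK5, AT5G47000 was called higher in cesium than in control, at 1.47 against 0.197 FPKM (1.0 ± 0.2, adjusted p = 0.00655, limma). So was AT4G18280, at 8.31 against 4.8 FPKM (0.68 ± 0.21, adjusted p = 0.039, limma). AT1G14642, CHX17 and AT5G38910 were not called in that comparison. The likeness is a description, and libraries of a group share their treatment.

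**Figure D5:**
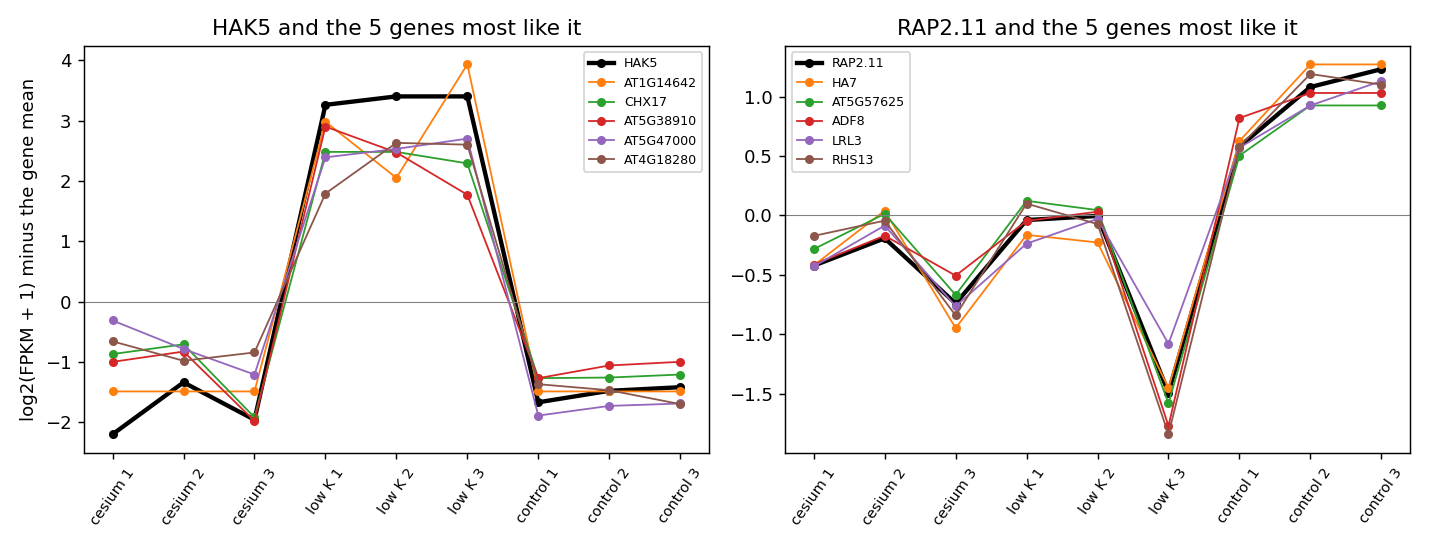
Log2(FPKM + 1) minus the gene's own mean (vertical axis) over the 9 libraries for HAK5 (left) and RAP2.11 (right), each in black with the 5 genes most like it in colour. HAK5 and its 5 genes are highest in the 3 low-potassium libraries, with AT5G47000 and AT4G18280 also above control in cesium. RAP2.11 and its 5 genes are high in control and lowest in low-potassium replicate 3.

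The same measure was taken for the other genes whose group means spanned at least 1 on this scale. CIPK9 was nearest to CML41 (0.212), a calmodulin-like protein that averaged 3.04 FPKM in cesium, 22.3 FPKM in low potassium and 3.17 FPKM in control. Next to it came AT1G48750 (0.254) of the lipid-transfer protein superfamily, AT4G00910 (0.261) of the aluminium-activated malate transporter family, the chitinase gene CHI (0.261) and the ATPase gene AT3G63380 (0.267). CBL9 was nearest to AT1G53430 (0.093), a leucine-rich repeat kinase at 8.92 FPKM in cesium, 20.9 FPKM in low potassium and 11.2 FPKM in control. It was followed by AAE2 (0.111), AT5G62570 (0.113), CIPK25 (0.117) and HMGB2 (0.12), and CIPK25 is itself a kinase of the CIPK family. RAP2.11 was nearest to HA7 (0.151), a plasma-membrane proton pump at 10.6 FPKM in cesium, 9.72 FPKM in low potassium and 31.3 FPKM in control. AT5G57625 (0.159), the actin-depolymerizing factor ADF8 (0.162), LRL3 (0.17) and the root hair gene RHS13 (0.173) followed.

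The other members of these families were read from lists of related genes. Of 24 further CIPK genes 20 were tested, CIPK13, CIPK18, CIPK20 and CIPK22 lying under the filter. In low potassium 8 of the 20 were called higher and 3 lower (CIPK7, CIPK14 and CIPK19), with a median change of 0.22, beside 18.8% of all tested genes called higher and 18.8% called lower. Here and below, genes named without values fill small counts and were picked after their values were seen. CIPK6, a kinase known from AKT2 trafficking, was 271 ± 16.2 FPKM there against 116 ± 4.38 FPKM in control (1.22 ± 0.094, adjusted p = 2.6e-05, limma), and CIPK7 was 75.6 ± 6.75 FPKM against 177 ± 7.12 FPKM (-1.22 ± 0.082, adjusted p = 1.34e-05, limma). CIPK9, with a change of 2.41, lay above the highest called change of these 20 kinases, 1.29 in CIPK17. In cesium against control 1 of the 20 was called higher, CIPK6 (0.64 ± 0.094, adjusted p = 0.0013, limma), and 9 lower, CIPK5 with the smallest adjusted p among them (-0.77 ± 0.084, adjusted p = 0.000267, limma). The median was -0.16, and of all tested genes 10.8% were called higher and 12.7% lower. In cesium against low potassium 1 was higher and 11 lower, with a median of -0.34, beside 16.7% of all tested genes called higher and 17.4% called lower, CIPK7 being the one higher (0.91 ± 0.082, adjusted p = 6.98e-05, limma) and CIPK5 among the lower (-1.28 ± 0.084, adjusted p = 1.21e-05, limma).

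Of 6 further CBL genes 4 were tested, CBL5 being listed at 0 in every library and CBL7 lying under the filter. CBL4, known as the SOS3 sensor of salt stress, was the one called in low potassium, where 37.6% of all tested genes were called, at 3.77 ± 0.662 FPKM against 5.6 ± 0.575 FPKM in control (-0.48 ± 0.12, adjusted p = 0.0147, limma). The call was lost without low-potassium replicate 3, control replicate 2 or control replicate 3, with adjusted p up to 0.0522. In cesium against control 0 of the 4 were called in limma, beside 23.5% of all tested genes, and 0 had an unadjusted p under 0.05. In cesium against low potassium CBL4 was higher (0.55 ± 0.12, adjusted p = 0.00816, limma), where 34.2% of all tested genes were called.

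Of 7 further Shaker channels the outward rectifiers GORK and SKOR were tested. Of all tested genes 37.6% were called in low potassium and 23.5% in cesium, each against control. AKT2, AKT5, AKT6, KAT1 and KAT2 lay under the filter, a mean of 1 FPKM over all libraries. AKT1 was therefore the tested inward channel of the family in these roots. AKT2, which was not tested, averaged 0.39 ± 0.0345 FPKM in cesium, 1.37 ± 0.339 FPKM in low potassium and 0.163 ± 0.0462 FPKM in control. No group of AKT2 values overlapped another. GORK, which lets potassium out of root hairs and guard cells, averaged 5.37 ± 0.117 FPKM in cesium, 14.2 ± 0.645 FPKM in low potassium and 9.2 ± 1.28 FPKM in control. It was higher in low potassium (0.58 ± 0.1, adjusted p = 0.00205, limma) and lower in cesium (-0.67 ± 0.1, adjusted p = 0.00148, limma) than in control. SKOR, which loads potassium into the xylem, was lower in low potassium, at 1.24 ± 0.215 FPKM against 2.45 ± 0.339 FPKM in control (-0.62 ± 0.13, adjusted p = 0.00474, limma).

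Of 8 other genes known to regulate HAK5, 7 were tested, DDF2 lying under the filter. Their median change was 0.088 in low potassium against control, -0.028 in cesium against control and -0.23 in cesium against low potassium. The 2 called of 7 in low potassium stood beside 37.6% of all tested genes, the 3 in cesium against control beside 23.5% and the 4 in cesium against low potassium beside 34.2%. In low potassium BHLH121 was the one called higher (0.39 ± 0.08, adjusted p = 0.00509, limma) and MYB77 the one called lower (-1.0 ± 0.2, adjusted p = 0.00473, limma). In cesium against control TFIIA was called higher and 2 genes lower, the lower ones being ARF2, an auxin response factor that represses HAK5 (-0.42 ± 0.081, adjusted p = 0.00562, limma), and EIN2 of ethylene signalling (-0.45 ± 0.088, adjusted p = 0.00622, limma). Against low potassium, cesium roots had 1 higher (MYB77) and 3 lower, BHLH121 and, with the smallest adjusted p, ARF2 (-0.63 ± 0.081, adjusted p = 0.000438, limma) and EIN2 (-0.47 ± 0.088, adjusted p = 0.00338, limma).

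A further list of 12 genes mixes partners and targets of CBL-CIPK complexes with other genes linked to potassium. Of these, 11 were tested, SLAC1 lying under the filter. Their median change was -0.26 in low potassium against control, -0.39 in cesium against control and -0.25 in cesium against low potassium. In low potassium 3 were higher (SLAH3, NRT1.1 and AIP1) and 4 lower (IRT1, RCI3, RBOHC and ILK1), where 37.6% of all tested genes were called. The shares of all genes called were 23.5% in cesium against control and 34.2% in cesium against low potassium. SLAH3, an anion channel, was 43.3 ± 5.32 FPKM in cesium, 120 ± 2.51 FPKM in low potassium and 31.1 ± 2.6 FPKM in control, and was higher than control in both low potassium (1.91 ± 0.099, adjusted p = 3.71e-06, limma) and cesium (0.46 ± 0.099, adjusted p = 0.00908, limma). IRT1, the iron transporter that CIPK23 phosphorylates, was lower in low potassium, at 1.75 ± 0.657 FPKM against 16.8 ± 5.61 FPKM in control (-2.68 ± 0.31, adjusted p = 0.000229, limma). NRT1.1, the nitrate transporter and sensor that CIPK23 phosphorylates, was 190 ± 50.7 FPKM in cesium against 708 ± 103 FPKM in low potassium (-1.92 ± 0.19, adjusted p = 0.0001, limma). In cesium against control 1 of the 11 was higher and 3 lower, AMT1.1, SYP121 and RBOHC (-1.02 ± 0.18, adjusted p = 0.00353, limma), which is an NADPH oxidase of root hairs and also stands in the list of root hair markers. In cesium against low potassium 2 were higher (IRT1 and RCI3) and 4 lower (SLAH3, NRT1.1, AIP1 and SYP121).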

How the data were processed

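RNA of Arabidopsis Col-0 roots was measured in 9 libraries, 3 per condition, grouped by the labels. Libraries were strand-specific and RNA was extracted with Trizol, per the labels' protocols. Cufflinks 2.2.1, STAR 2.5.0c, Bowtie2 2.3.4.1 and the TAIR10 build come from the submitters' processing notes, which state no role for any of them here. The authors deposited FPKM per gene and library, with confidence bounds and a status, and, for each stress against control, a table with FPKM per group, log2 fold changes, p-values and q-values whose test is not named. FPKM scale fragments to transcript length and to library size, and how libraries were scaled to each other is not given.

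Of 37547 genes, 5 were dropped for 6 values without an OK status. FPKM are not counts, so log2(FPKM + 1) was fitted by group over all 9 libraries with limma 3.58.1 in R 4.3.3, using its intensity trend, for the 19536 genes averaging 1 FPKM or more. The fit was tested on simulated data. Relative depth was read from FPKM under 0.5, where 13.9% to 18.4% of ratios between libraries lay within 0.015 of one step on the log2 scale. Replicate numbers were not used as pairs in the main fit. Of each list of related genes, up to 2 with the smallest adjusted p per comparison were named, and the 5 genes nearest in profile to a member whose group means span at least 1. Members, lists and rules were chosen with earlier results of these data known. Symbols came from RefSeq for TAIR10.1, in which 37045 identifiers matched, with AKT1, KC1 and list names as in common use. Coordinates, counted from 1, follow the TAIR10 files unless RefSeq is named. Protein sequences were not used here.

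Alternatives were quantile and median-ratio scaling, pseudocounts of 0.1 and 0.5, a filter of 5 FPKM or none, fitting the 6 libraries compared, blocking on replicate number, dropping the trend, taking the authors' q-values, and leaving out 1 library at a time. Python 3.11.15, pandas 2.3.3 and matplotlib 3.10.9 were used.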

Additional observations from a re-analysis of the deposited data

How the results depend on the processing

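Of the 560 pairs of a change of one of the 10 genes and an alternative, 526 kept direction and side of the threshold, 19 lost the call, 6 gained it and 9 changed sign, and 17 of the 30 changes kept both throughout. In low potassium against control 6 to 8 genes were called under every alternative, and in cesium against low potassium 6 to 8. In cesium against control the count of 2 became 1 with a fit on 6 libraries, 1 with the replicate block and 1 by the authors' q-values, and leaving out single libraries gave 0 to 3, with 0 without control replicate 2 or 3. Under the block CBL9 lost its call in cesium against control (adjusted p = 0.0653, limma). The replicate block changed no other count of members by over 1.5 times. Correlations of deviations from group means lay between -0.12 and 0.282 for same-numbered libraries and between -0.216 and 0.203 for the others. The highest, 0.282, was that of low-potassium replicate 3 with cesium replicate 3. Whether replicate numbers pair the libraries was not tested. Sign changed in 4 near-zero changes, none of them called. AKT1 in cesium against control became 0.020 with quantile normalization, 0.000335 in the authors' deposited table, and 0.132 and 0.00534 without cesium replicate 3 and control replicate 2 (range over single libraries -0.105 to 0.132). KC1 became -0.0738 and -0.0197 without cesium replicate 1 and control replicate 1 (range -0.0738 to 0.223), and CIPK9 0.0102 without control replicate 2 (range -0.259 to 0.0102). RAP2.11 in cesium against low potassium became -0.43 and -0.0691 without low-potassium replicate 3 and cesium replicate 2 (range -0.43 to 0.314). The cause of these changes was not tested. Absolute depth is unknown, so the counting error of genes at a few FPKM, such as HAK5 and CIPK9 in cesium and control, is known only through the deposited bounds.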
